A study of Danio rerio with 7 samples.

Results

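The mitochondrial genome of the zebrafish encodes 13 proteins of the oxidative phosphorylation chain, and 6 of their genes are described here in larvae under low oxygen. They are mt-co1 (ENSDARG00000063905), mt-co2 (ENSDARG00000063908) and mt-co3 (ENSDARG00000063912) of complex IV, mt-cyb (ENSDARG00000063924) of complex III, and mt-atp6 (ENSDARG00000063911) and mt-atp8 (ENSDARG00000063910) of complex V. They were chosen by function and Ensembl identifier and make up 6 of the 25049 genes in the table, and all 6 were among the 23716 genes tested. Wild-type larvae were kept at 6% O2 (hypoxia, 3 libraries) or at the atmospheric 20.9% O2 (normoxia, 4 libraries) for 15 hours, beginning at 81 hpf (hours after fertilization) and ending at 96 hpf. Each library was made from poly(A) RNA of the whole bodies of 30 pooled larvae. The comparison addresses which transcripts change when larvae of this stage are held at low oxygen.

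Complex III passes electrons from ubiquinol to cytochrome c, and complex IV passes them on to oxygen, which is reduced to water. Both pump protons across the inner mitochondrial membrane, and complex V, the ATP synthase, uses the return of these protons to make ATP. The mitochondrial DNA is transcribed into long precursors that span many genes. The precursors are cut into separate RNAs, and most of the mRNAs receive a poly(A) tail, so that they are captured by poly(A) selection. The level of each mRNA therefore depends on its stability and its tail as well as on transcription.

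Total counts were 67083058 to 69920400 per hypoxia library and 70275114 to 78235938 per normoxia library. TMM factors, which adjust the total for differences in composition, were 0.951 to 0.977 in hypoxia and 1.02 to 1.04 in normoxia. The scaling thus enters every CPM value, the counts divided by the TMM-scaled library total and expressed in the usual CPM unit, and results that depend on it are named as such. All tests across genes are edgeR quasi-likelihood tests with Benjamini-Hochberg adjustment over the 23716 genes. The methods describe the replicates as biological, and a chi-square test over genes found that replicates of a group differed by more than sampling noise in each of the 9 pairs (7.04 to 20.9 per degree of freedom).

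The 6 genes together took a larger share of the library in hypoxia. Their summed share of all counts was 2.72%, 2.80% and 2.78% in hypoxia replicates 1 to 3, against 2.24%, 2.40%, 2.31% and 2.64% in normoxia replicates 1 to 4. The mean was 2.77% ± 0.0438 in hypoxia (SD, n = 3) and 2.40% ± 0.174 in normoxia (SD, n = 4), a difference of 0.370 percentage points. Every hypoxia library lay above every normoxia library, and normoxia replicate 4 came closest to the hypoxia libraries. The 95% Wilson intervals of these shares reached at most 0.0039 percentage points to either side and cover counting error only. The spread between libraries was thus far wider than the counting error. The 3 complex IV genes together made up 2.02% ± 0.0353 of the counts in hypoxia and 1.70% ± 0.117 in normoxia. The complex III gene made up 0.375% ± 0.00061 in hypoxia and 0.311% ± 0.0219 in normoxia. For a single gene the Wilson interval reached at most 0.0025 percentage points to either side. The hypoxia SD of the complex III gene was below that and was not shown to exceed counting error. The 2 complex V genes made up 0.368% ± 0.00802 in hypoxia and 0.380% ± 0.0365 in normoxia. The complex IV and complex III shares did not overlap between the groups, and the complex V share did. No test was run on these sums, since they are scores over a chosen list.

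Of the 6 genes, mt-co1, mt-co2, mt-co3 and mt-cyb rose in hypoxia by 20.6% to 30.4%, although under cyclic loess normalization with limma mt-cyb alone was still called, whereas mt-atp6 and mt-atp8 did not pass the test. At an adjusted p under 0.05, 4 genes were higher and 0 lower, where 24.6% of all tested genes were higher (5840) and 25.1% lower (5950). With library size only, 3995 genes were higher and 8072 lower, and the same number of the 6 was called. At an unadjusted p under 0.05, 5 of the 6 were higher and 0 lower, where 27.8% of all tested genes were higher and 28.4% lower. DESeq2 called 5 of the 6 higher and 0 lower at an adjusted p under 0.05, where it called 22.9% of its genes higher and 23.1% lower. With edgeR and with DESeq2, 0 of the 6 were differentially expressed genes (DEGs) by the study's thresholds, which ask in addition for a log2 fold change beyond 0.6. By that rule 3.07% of the tested genes were higher. For the same 4 genes every hypoxia library exceeded every normoxia library in CPM, as it did for 26.3% of the tested genes. The median log2 fold change of the 6 was 0.30, against -0.0044 for all tested genes, and 0.12 against 0.0038 under cyclic loess.

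**Figure D1:**
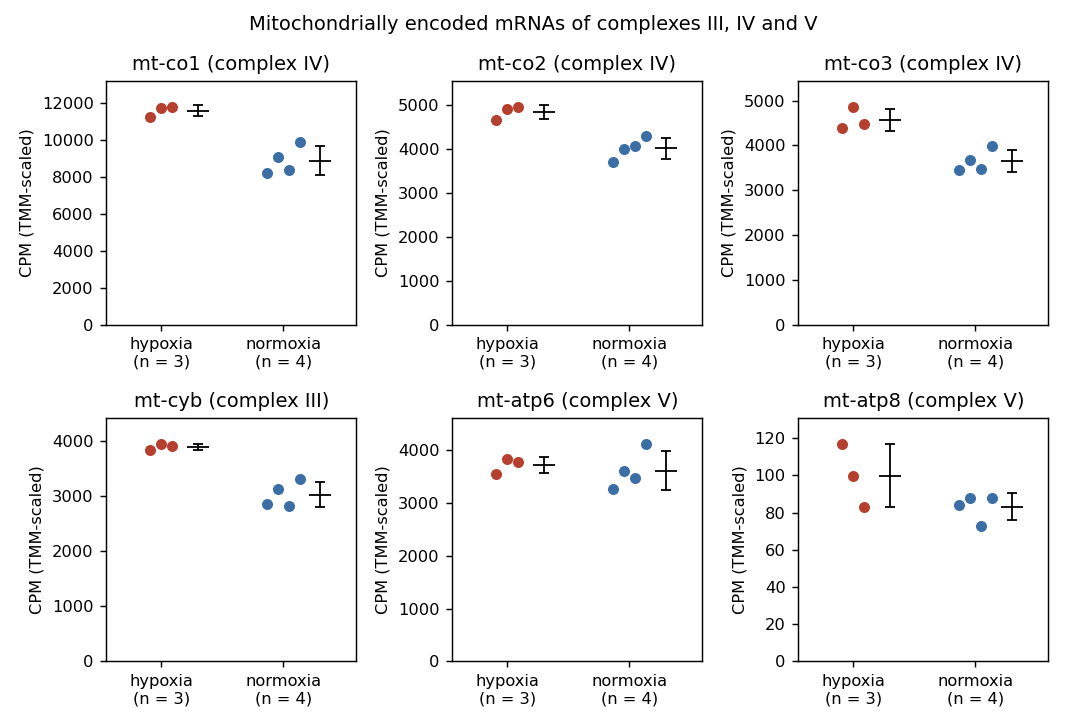
CPM (TMM-scaled, vertical axes from 0) of the 6 genes in each hypoxia library (red, n = 3) and normoxia library (blue, n = 4), with the mean and SD in black beside the points. The groups do not overlap in mt-co1, mt-co2, mt-co3 and mt-cyb and overlap in mt-atp6 and mt-atp8, and normoxia replicate 4 is the highest normoxia library in 5 of the 6 genes.

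The mt-co1 gene encodes the catalytic subunit of complex IV, which holds the site where oxygen is reduced. It had 757732, 750322 and 791586 counts in hypoxia replicates 1 to 3, against 598597, 703282, 625329 and 794726 in normoxia replicates 1 to 4. In CPM these were 11243, 11759 and 11790 in hypoxia and 8236, 9087, 8367 and 9898 in normoxia. The unscaled counts of normoxia replicate 4, the deepest library, reached those of hypoxia, and the CPM did not. The mean was 11597 ± 307 CPM in hypoxia and 8897 ± 765 CPM in normoxia, which gave 0.38 on the log2 scale, with a standard error of 0.06 (adjusted p = 0.00062). By number of counts, which is not a level per length, mt-co1 stood between place 3 and place 5 of all genes in every library.

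The mt-co2 gene encodes the subunit that accepts electrons from cytochrome c. Its CPM was 4667, 4916 and 4952 in hypoxia and 3710, 3994, 4076 and 4287 in normoxia. It had the smallest increase of the 4 genes called, 0.27 on the log2 scale with a standard error of 0.05 (adjusted p = 0.0017). The mt-co3 gene encodes the remaining mitochondrially made core subunit of complex IV, which carries no redox centre. Its CPM was 4388, 4855 and 4483 in hypoxia and 3457, 3678, 3480 and 3992 in normoxia. The groups were again separate, and the log2 fold change was 0.33 (standard error 0.06, adjusted p = 0.0011).

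The mt-cyb gene encodes cytochrome b, the subunit of complex III on which ubiquinol is oxidized. Its CPM was 3829, 3944 and 3900 in hypoxia and 2860, 3124, 2816 and 3303 in normoxia. The 3 hypoxia libraries were close together (SD 58.2 CPM), while the normoxia libraries spread more widely (SD 229 CPM). The log2 fold change was 0.36 (standard error 0.06, adjusted p = 0.00049). It was the one member still called under cyclic loess, at 0.16 (adjusted p = 0.036, with 4.7e-08 to 1 over all its alternatives, the upper end being the test against a threshold of 0.6).

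The mt-atp6 gene encodes the subunit of ATP synthase that forms the proton path beside the rotating ring. Its CPM was 3557, 3828 and 3787 in hypoxia and 3268, 3607, 3467 and 4121 in normoxia. The hypoxia libraries lay within the range of the normoxia libraries, of which replicate 4 was above all 3. The log2 fold change was 0.04, with a 95% interval from -0.11 to 0.20 (adjusted p = 0.65). The sign of this value turned with the scaling and with 1 library. It was -0.05 with library size only (adjusted p = 0.53) and -0.004 without normoxia replicate 1 (adjusted p = 0.97). Under cyclic loess with limma it was -0.16 and missed the threshold narrowly (adjusted p = 0.058). An interval of this width leaves out changes of the size estimated for mt-co1, mt-co2, mt-co3 and mt-cyb but does not show that the level was equal.

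The mt-atp8 gene encodes a short membrane protein of the stator of ATP synthase. It was the least counted of the 6, with 7888, 6348 and 5593 counts in hypoxia, against 6098, 6822, 5422 and 7067 in normoxia. Its CPM was 117, 99.5 and 83.3 in hypoxia and 83.9, 88.1, 72.6 and 88.0 in normoxia. Hypoxia replicate 1 stood highest, and hypoxia replicate 3 lay below 3 of the 4 normoxia libraries. The log2 fold change was 0.27 (standard error 0.10) and missed the threshold narrowly (adjusted p = 0.051). Leaving out hypoxia replicate 1 lowered it to 0.14 (adjusted p = 0.21), and leaving out hypoxia replicate 3 raised it to 0.38 (adjusted p = 0.0048). With DESeq2 the adjusted p was 0.021, and over all its alternatives it ran from 0.0043 to 1.

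The reading frames of mt-atp8 and mt-atp6 lie on one vertebrate mRNA. By RefSeq, whose table is on GRCz12tu and not on the GRCz11 assembly of the alignment, mt-atp8 overlaps mt-atp6, and mt-atp6 overlaps mt-co3. How reads that fall on 2 genes, or that map to several places, were counted is not given in the sources used here, and the counts of these 3 genes are uncertain to that extent. The ratio of mt-atp8 to mt-atp6 counts in the same library was 0.0329, 0.0260 and 0.0220 in hypoxia and 0.0257, 0.0244, 0.0209 and 0.0214 in normoxia. The groups overlapped. The mean log2 ratio differed by 0.21, and no difference was called (two-sided exact permutation test over 35 divisions, p = 0.20, where the smallest p these group sizes allow is 0.029).

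Ratios between genes of one library do not depend on the scaling, and they set mt-atp6 apart from mt-co1, mt-co2, mt-co3 and mt-cyb. These ratios were chosen after the values had been seen and are given as a description, with no test. For each count of mt-atp6 there were 3.16, 3.07 and 3.11 counts of mt-co1 in hypoxia, against 2.52, 2.52, 2.41 and 2.40 in normoxia. The SD was 0.0446 in hypoxia and 0.0648 in normoxia, so that the distance between the groups was several times their spread. The ratio of mt-cyb to mt-atp6 was 1.08, 1.03 and 1.03 in hypoxia and 0.875, 0.866, 0.812 and 0.801 in normoxia. For mt-co2 the same ratio ran from 1.28 to 1.31 in hypoxia and from 1.04 to 1.18 in normoxia. For mt-co3 it ran from 1.18 to 1.27 in hypoxia and from 0.969 to 1.06 in normoxia. The groups did not overlap in any of these 4 ratios. They share mt-atp6 as denominator and are not separate observations, and no such share over other gene pairs was computed. In normoxia replicate 4, where all 5 abundant genes were at their normoxia maximum, these 4 ratios were the lowest of any library.

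**Figure D2:**
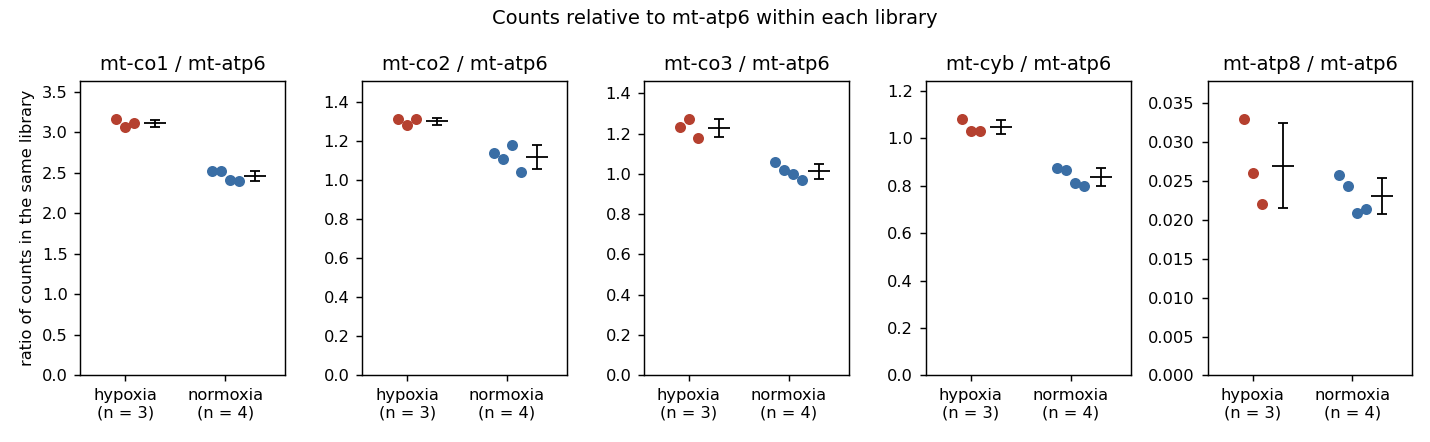
Ratio of the counts of each gene to those of mt-atp6 in the same library (vertical axes from 0, no unit) in hypoxia (red, n = 3) and normoxia (blue, n = 4), with the mean and SD in black. The ratios of mt-co1, mt-co2, mt-co3 and mt-cyb are higher in every hypoxia library than in any normoxia library, and that of mt-atp8 overlaps.

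The genes that rose were also set against mt-co1. The ratio of mt-cyb to mt-co1 was 0.336 ± 0.00491 in hypoxia and 0.340 ± 0.00628 in normoxia, and that of mt-co3 to mt-co1 was 0.394 ± 0.0167 in hypoxia and 0.411 ± 0.00814 in normoxia. Both overlapped between the groups. The ratio of mt-co2 to mt-co1 was 0.418 ± 0.00245 in hypoxia and 0.453 ± 0.0241 in normoxia, lower in every hypoxia library. Among the counts of the 6 genes, mt-atp6 accounted for 13% ± 0.144 in hypoxia and 15.5% ± 0.401 in normoxia. The share of mt-co1 was 40.4% ± 0.340 in hypoxia and 38.2% ± 0.463 in normoxia. In the gene order of the RefSeq table mt-atp6 lies between mt-atp8 and mt-co3, with mt-co2 before mt-atp8. The called genes mt-co2 and mt-co3 had log2 fold changes of 0.27 and 0.33, against 0.04 for mt-atp6. That of mt-atp8 was 0.27 but was not called, and its ratio to mt-atp6 overlapped between the groups.

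The size of the increase depended on the scaling. With library size only, mt-co1, mt-co2, mt-co3 and mt-cyb had log2 fold changes of 0.29, 0.17, 0.23 and 0.27 and all 4 remained past the adjusted p. The median of all genes was then -0.10, so that relative to that median the values were as large as with TMM. Leaving the 6 genes out of the scaling factors changed none of the 6 calls. Cyclic loess, which removes any trend of the fold change with abundance, lowered mt-co1 to 0.13 (adjusted p = 0.12), mt-co2 to 0.05 (adjusted p = 0.42) and mt-co3 to 0.11 (adjusted p = 0.11). Over all alternatives the adjusted p ran from 1.1e-07 to 1 for mt-co1, from 1.3e-05 to 1 for mt-co2 and from 2.1e-06 to 1 for mt-co3.

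Such a trend was present in these libraries. Of the 93 genes with a mean CPM of at least 1000, which include 5 of the 6 genes, 60 were higher in hypoxia (64.5%) and 7 lower (7.53%). Their median log2 fold change was 0.20 with TMM and 0.02 under cyclic loess. In the class from 10 to 100 CPM, 31.9% were higher and 30.6% lower. The increases of mt-co1, mt-co2, mt-co3 and mt-cyb thus stood above the median of genes of their abundance, by less than they stood above the median of all genes. Whether the trend is technical was not tested.

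**Figure D3:**
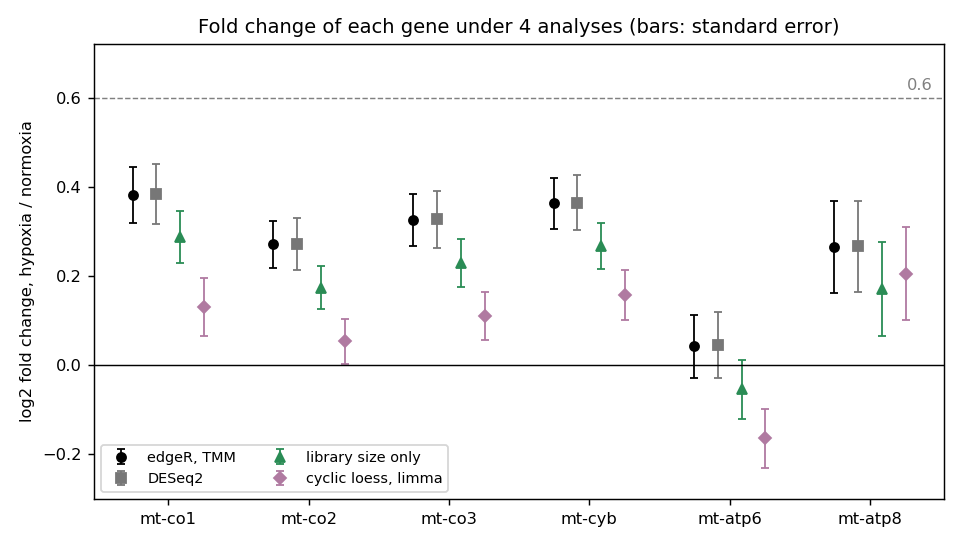
Log2 fold change (hypoxia over normoxia, vertical axis) of the 6 genes with edgeR and TMM (black), DESeq2 (grey), library size only (green) and cyclic loess with limma (purple), where bars are standard errors and the dashed line marks the fold threshold of 0.6. Values for mt-co1 run from 0.13 under cyclic loess to 0.38 with TMM and DESeq2, mt-atp6 lies on both sides of 0, and no value reaches 0.6.

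The 7 mitochondrially encoded subunits of complex I, the entry point for electrons from NADH, were measured in the same libraries. Over all tested genes 24.6% were higher at the adjusted p and 25.1% lower. Of genes from 100 to 1000 CPM 45.6% were higher, and of those with at least 1000 CPM 64.5%. The 7 genes had mean levels of 339 to 1902 CPM. At the adjusted p 3 of the 7 rose, mt-nd3, mt-nd4 and mt-nd6, and 0 fell, with a median log2 fold change of 0.14. This count was 1 higher with library size only, 1 higher and 1 lower under cyclic loess, and 5 higher without normoxia replicate 4. The largest value was that of mt-nd6 (ENSDARG00000063922), at 0.36 (standard error 0.07, adjusted p = 0.0023), which overlaps mt-nd5 in the RefSeq annotation. The smallest was that of mt-nd1 (ENSDARG00000063895), at 0.04 (standard error 0.06, adjusted p = 0.62). Of the counts on all 13 mitochondrial mRNA genes, the 6 genes took 76.9%, 77.1% and 77.3% in hypoxia replicates 1 to 3, against 74.6%, 74.8%, 75.4% and 74.7% in normoxia replicates 1 to 4. The ranges did not overlap, while the summed share of the 7 complex I genes in the library did overlap, at 0.821% ± 0.00879 in hypoxia and 0.806% ± 0.0649 in normoxia.

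The nuclear genome encodes the other subunits of complexes III, IV and V, and lists of these were set by symbol. The lists for complexes IV and V also hold associated factors, some of which are among the genes counted as higher. Their counts stand beside 24.6% higher and 25.1% lower over all tested genes. Of 21 complex IV symbols 14 could be matched and tested, and 6 of them rose and 0 fell (median log2 fold change 0.16). These 14 had mean levels of 10.1 to 331 CPM. Of tested genes from 10 to 100 CPM 31.9% were higher, and of those from 100 to 1000 CPM 45.6%. Between 4 and 8 rose under the scaling alternatives and DESeq2. The largest increase was that of cox4i1l (ENSDARG00000012388), an isoform gene of the regulatory subunit 4, with 32.5, 31.7 and 31.4 CPM in hypoxia, against 5.72, 4.57, 4.42 and 4.60 CPM in normoxia. Its log2 fold change was 2.72 (standard error 0.08, adjusted p = 2.3e-08). The next was cox6b1 (ENSDARG00000045230), with 119 ± 7.63 CPM in hypoxia, against 61.9 ± 1.49 CPM in normoxia (0.95 on the log2 scale, adjusted p = 8.1e-07). These were the 2 DEGs of the list, where 3.07% of all tested genes were higher by that rule. The cox4i2 gene (ENSDARG00000022509), whose mammalian counterpart is known as a low-oxygen isoform of subunit 4, was named after its value was seen and had 0.49 on the log2 scale (adjusted p = 0.00038). At the other end stood cox6a1 at -0.04 (adjusted p = 0.64) and cox6b2 at 0.02 (adjusted p = 0.80).

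Of 10 nuclear complex III symbols 8 were tested, of which 0 rose and 2 fell (median log2 fold change 0.01). The 2 were uqcrc1, which encodes a core protein, at -0.20 (standard error 0.04, adjusted p = 0.0035), and uqcrfs1, which encodes the Rieske iron-sulfur protein, at -0.17 (standard error 0.04, adjusted p = 0.0053). The mitochondrially encoded mt-cyb and these 2 nuclear partners thus had fold changes of opposite sign. The other 6 were not called, with values from 0.007 (uqcrc2a, standard error 0.047) to 0.145 (uqcrb, standard error 0.186). The list median was -0.082 with library size only and -0.053 under cyclic loess, so that some of these 6 signs turned with the scaling. With DESeq2, and in edgeR with its size factors or upper quartile scaling, 1 of the 8 rose and 2 fell. The shares over all tested genes were 24.6% higher and 25.1% lower. Of 21 complex V symbols 18 were tested, of which 3 rose and 1 fell (median log2 fold change 0.03), and with library size only 0 rose and 5 fell, while under cyclic loess 2 rose and 5 fell. Here atp5f1e had 0.23 (adjusted p = 0.018) and atp5meb 0.19 (adjusted p = 0.0059), and atp5mc1, a gene of the rotating c ring, had -0.23 (adjusted p = 0.0033). The next lowest, atp5f1b, which encodes the catalytic beta subunit, had -0.10 and was not called (adjusted p = 0.098). For the electron carrier between complexes III and IV, cytochrome c, cycsb had -0.003 (adjusted p = 0.96), and it was lower under cyclic loess (-0.11).

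Genes for mitochondrial transcription and for the upkeep or turnover of mitochondrial RNA were listed as well. The list also holds some transcriptional regulators of nuclear genes. Of 13 tested from 15 symbols, 1 rose and 5 fell (median log2 fold change -0.10), where 24.6% of all tested genes were higher and 25.1% lower. No test was run on the list, and the count that fell was 5 to 7 under the scaling alternatives. The lrpprc gene, whose mammalian product binds mitochondrial mRNAs and keeps them stable, had 93.7, 86.5 and 85.6 CPM in hypoxia, against 112.6, 110.9, 107.5 and 110.7 CPM in normoxia (log2 fold change -0.32, standard error 0.05, adjusted p = 0.00029). The mtpap gene, which encodes the mitochondrial poly(A) polymerase, had 6.47, 7.01 and 6.45 CPM in hypoxia and 8.27, 8.62, 7.97 and 7.81 CPM in normoxia (log2 fold change -0.30, standard error 0.07, adjusted p = 0.0055). The groups were separate in both, but the share of all tested genes that separate in this direction is not given here. The 1 gene that rose was nrf1, a transcription factor for nuclear genes of the respiratory chain, at 0.19 (adjusted p = 0.0075). The next highest was ppargc1b, also such a regulator, at 0.11, which was not called (adjusted p = 0.092). Tail length was not measured, and the part of poly(A) selection in the counts of the 6 genes was not tested.

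**Figure D4:**
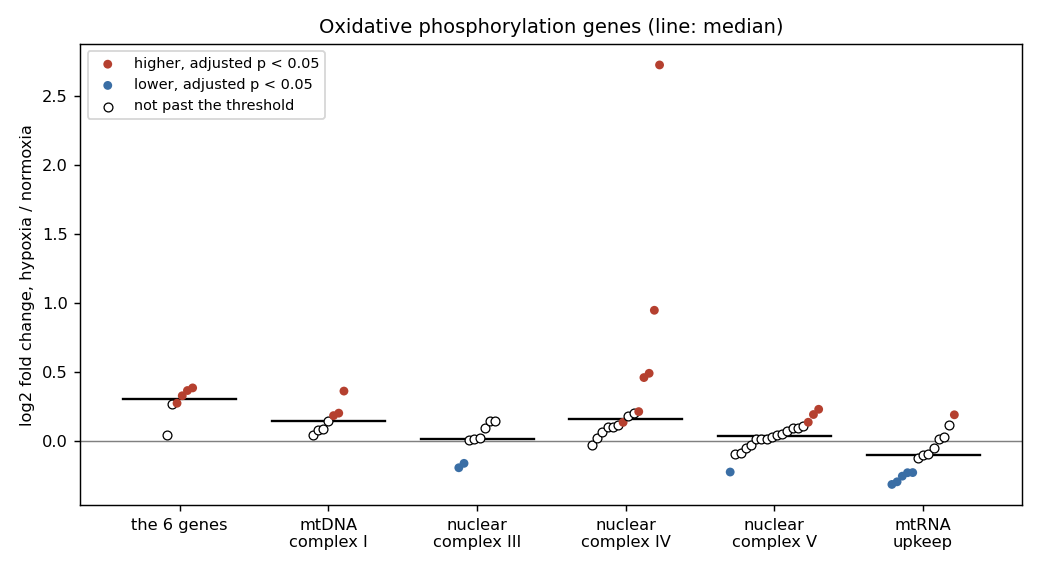
Log2 fold change (hypoxia over normoxia, vertical axis) with edgeR and TMM for the 6 genes, the 7 complex I genes of the mitochondrial DNA (mtDNA), the lists of nuclear genes for complexes III, IV and V and the list for mitochondrial transcription and RNA upkeep, with its regulators of nuclear genes (mtRNA upkeep), where each point is 1 gene and the line is the median. Red points are higher and blue points lower at an adjusted p under 0.05, open points are not called, and cox4i1l at 2.72 is the highest point.

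In whole larvae a change in the number of cells of a type cannot be told apart from a change in RNA per cell. Markers of several tissues were matched by symbol, and their calls stand beside 24.6% higher and 25.1% lower over all tested genes. For skeletal muscle, 3 of 6 markers were matched and their summed level was 13816 to 13942 CPM in hypoxia and 10958 to 11875 CPM in normoxia. Of these 3, ckma and ckmb, the muscle creatine kinases, rose (log2 fold changes 0.38 and 0.32, adjusted p = 6.4e-05 and 0.0002), and myhz2, a myosin heavy chain, had 0.06 (adjusted p = 0.51). All 3 had a mean of at least 1000 CPM, a class in which 64.5% of genes were higher, with a median log2 fold change of 0.20. Under cyclic loess 1 of the 3 was higher. The 2 matched heart markers of 4 summed to 19.4 to 31.5 CPM in hypoxia, against 28.9 to 32.0 CPM in normoxia, and 1 of them, cmlc1, fell. The 3 liver markers, all of which fell, summed to 389 to 1010 CPM in hypoxia and 1403 to 1999 CPM in normoxia. The 1 neuronal marker matched of 2, elavl3, had 477 to 525 CPM in hypoxia, against 375 to 401 CPM in normoxia. The 1 red cell marker of 2, hbae1.1, had 6.58 to 8.69 CPM in hypoxia, against 2.65 to 4.21 CPM in normoxia. Both rose. With 1 to 3 markers per tissue, these values do not establish a change in tissue composition. Whether such a change bears on the levels of the 6 genes was not tested.

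Profiles close to that of the 6 were sought among 11822 other genes with a mean CPM of at least 10, the lists above included. The log2 CPM of each was set against the log2 of the summed CPM of the 6 over the 7 libraries. The closest 2 were EPHA6 (ENSDARG00000022971, Pearson r = 0.9955) and EAF1 (ENSDARG00000070795, r = 0.9946), named as in the symbol table. EPHA6 had 23.6 ± 1.08 CPM in hypoxia, against 18.7 ± 1.38 CPM in normoxia. EAF1 had 19.9 ± 0.231 CPM in hypoxia, against 17.5 ± 0.935 CPM in normoxia. The libraries fall into 2 groups, so that these coefficients mostly describe the difference between the groups, and 1 of the 2 genes was also among the first 2 with library size only.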

How the data were processed

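Poly(A) RNA-seq of 3 hypoxia and 4 normoxia pools of 30 larvae was used, grouped by the sample titles. The authors trimmed reads with Trimmomatic 0.39, aligned them with STAR 2.7.10 to GRCz11 and used featureCounts 2.0.7 to count reads in genes. They deposited raw counts with no gene total below 10. Strand, multi-mapping and overlap settings are not given in the sources used here. All 7 columns were used.

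Counts were filtered with filterByExpr, scaled by TMM and tested in edgeR 4.0.16 (R 4.3.3), a gene being called at an adjusted p under 0.05, with or without the study's log2 threshold of 0.6. The standard error is the absolute log2 fold change over the square root of F. Log2 CPM used a prior count of 2. Alternatives were DESeq2 1.42.0, limma 3.58.1 after cyclic loess, other scalings, count filters and thresholds, a block for the replicate number, and each library left out in turn. One scaling and 2 settings for the gene lists were added after seeing the data.

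The members and lists were chosen with earlier results of these data known. Named genes are the 6 members, up to 2 from each end of a list, and the 2 closest profiles. Also named, outside this rule, are cox4i2, mt-nd3, mt-nd5 and uqcrc2a. Symbols came from a table of Ensembl identifiers, matched without regard to case. The 2 mitochondrial rRNA symbols had no match. RefSeq (GRCz12tu) gave only order and overlap. Nucleotide and protein sequences were not used here.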

Additional observations from a re-analysis of the deposited data

How the results depend on the processing

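With the threshold of 0.6 inside the test (glmTreat), there were 133 higher and 167 lower genes in place of 729 and 1766, and mt-co1 (0.38), mt-co2 (0.27), mt-co3 (0.33) and mt-cyb (0.36) were not called. Library size only gave 427 higher and 2484 lower DEGs, and mt-atp6 turned to -0.054, as it did with library size only on the other genes (-0.048, added after seeing the data). Cyclic loess kept 1 of the 4 member calls, with 0.13 for mt-co1, 0.053 for mt-co2, 0.11 for mt-co3 and -0.16 for mt-atp6. Beyond the removal of the trend by construction, the cause was not tested. The mt-atp8 value, beside its 0.27, passed the threshold with DESeq2 (0.27), DESeq2 size factors (0.27), upper quartile (0.27) and at least 10 counts in every library (0.26). It did not pass with library size only (0.171, adjusted p = 0.2) or under cyclic loess (0.205, adjusted p = 0.13). On the TMM-scaled total the summed share differed by 0.544 percentage points in place of 0.370. Of the 2 closest profiles, 1 (EPHA6) stayed among the first 2 with library size only. Spearman rho over 7 libraries could not rank the profiles, since 43 genes tied at a rho of 1, and EPHA6 was 1 of them and EAF1 was not.

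A replicate block, fitted to replicates 1 to 3, called 5 of the 6 genes, mt-atp8 at 0.29 (adjusted p = 0.0043), against 4 on the same libraries without the block. No other member call changed. The numbers are not stated to pair the pools. Pairing was examined on the log2 CPM of each gene after the mean of its group was subtracted. These deviations correlated at 0.19, 0.052 and 0.021 between same-numbered libraries. By them 2 of 3 hypoxia libraries correlated best with their own number.

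Leaving out 1 library at a time gave log2 fold changes from 0.35 to 0.44 for mt-co1, 0.23 to 0.30 for mt-co2, 0.28 to 0.37 for mt-co3 and 0.33 to 0.41 for mt-cyb, each called in all 7 fits. The range was -0.004 (without normoxia replicate 1) to 0.11 for mt-atp6 (called in 0 fits) and 0.14 to 0.38 for mt-atp8 (called in 1, without hypoxia replicate 3). From 4 to 5 genes were higher, 0 to 0 lower and 0 to 0 were DEGs. The summed share differed by 0.317 to 0.450 percentage points and the mt-atp8 to mt-atp6 log2 ratio by 0.06 to 0.35. Over all genes, 4667 to 5942 were higher and 4842 to 6079 lower, and 576 to 913 higher and 1271 to 2266 lower were DEGs. For the summed share, counting error was small beside the spread between the pools.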
